A study of Mus musculus with 4 samples.

Results

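The immediate early transcription factors Egr1, Egr2, Egr3, Fos, Fosb, Jun, Junb, Ier2, Atf3 and Nr4a1 were followed as 10 named genes of the 16308 in the count tables, across the leukocyte classes of 4 single-cell libraries. All 10 had UMIs (unique molecular identifiers, 1 per captured mRNA molecule) in the monocyte/macrophage (Mφ)-like, dendritic cell-like, neutrophil-like and Siglecf-high cells of every library. The libraries held CD45+ cells, that is leukocytes, from the muscularis (the outer muscle layer) of the small intestine of mice aged 12 weeks after surgical handling of the gut. The 4 groups, with 1 library each, were WT (C57BL/6J) at 24 h, CCR2 KO (Ccr2-/-, B6.129S4-Ccr2tm1Ifc/J) at 24 h, WT at 72 h and CCR2 KO at 72 h. CCR2 is the chemokine receptor with which monocytes leave the bone marrow, and each library pooled several mice. Every mouse had undergone the surgery, and no uninjured library was used here. With 1 library per group there was no replicate check. All intervals are 95% intervals that cover counting error only (exact, except those of differences between classes, which are normal approximations), and no p-value was computed.

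Immediate early genes are transcribed within minutes of a stimulus by factors that are already present in the cell, such as SRF with its ETS partners and CREB, and their mRNAs are short-lived. Egr1, Egr2 and Egr3 encode zinc finger factors. Fos, Fosb, Jun and Junb encode subunits of AP-1, Atf3 is a related leucine zipper factor of the stress response, Nr4a1 is an orphan nuclear receptor, and Ier2 is a nuclear protein of the early growth response. In Mφs, Egr2 is also known as a gene of particular activation states. The same genes respond to warming, digestion and sorting of tissue, so that their mRNA in isolated cells can date from the animal or from the bench, which was not tested here.

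Promoter sequences are shown for 4 members, chosen after their motifs were seen, because they hold elements for the factors that induce these genes or for the EGR factors themselves. RefSeq windows (GRCm38.p6, the 250 bases before the start) were matched for 7 of the 10 members. Egr1, Egr3 and Ier2 were without one. The 130 bases that end 21 bases before the start are given on the strand of the gene, from chr10:67537719-67537848 (+) for Egr2, chr12:85473740-85473869 (+) for Fos, chr7:19310066-19310195 (-) for Fosb and chr15:101266696-101266825 (+) for Nr4a1. Capitals mark the CArG box (bound by SRF), GCGNGGGCG (bound by EGR factors) and TGACG (the core of the CREB/ATF element), each in either orientation.
Egr2: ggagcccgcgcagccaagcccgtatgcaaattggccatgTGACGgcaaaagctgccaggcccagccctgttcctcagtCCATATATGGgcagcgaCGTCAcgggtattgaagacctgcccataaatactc
Fos: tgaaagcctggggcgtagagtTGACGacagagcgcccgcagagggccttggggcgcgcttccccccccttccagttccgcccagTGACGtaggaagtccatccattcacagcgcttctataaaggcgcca
Fosb: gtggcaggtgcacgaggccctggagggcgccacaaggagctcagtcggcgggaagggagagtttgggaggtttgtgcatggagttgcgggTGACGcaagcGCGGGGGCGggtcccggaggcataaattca
Nr4a1: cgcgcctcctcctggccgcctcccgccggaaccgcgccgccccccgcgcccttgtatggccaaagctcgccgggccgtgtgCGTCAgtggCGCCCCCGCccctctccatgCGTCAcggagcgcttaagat
A CArG box was found in 1 of the 7 members, at 72 to 63 bases before the start of Egr2, and in 1.47% of 32851 promoter windows. GCGNGGGCG was found in 2 members, Fosb (50 to 42 bases before the start) and Nr4a1 (60 to 52), and in 4.7% of windows. TGACG was found in 6 members (Atf3, Egr2, Fos, Fosb, Junb and Nr4a1) and in 17.8% of windows. The full elements TGACGTCA, which contains TGACG, and TGANTCA were found in 0 of the 7 members and in 1.55% and 6.75% of windows. A match of letters is a description and not a bound site.

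Of 5811 cells in the files, 5800 were kept. Total UMIs per library ranged from 9736725 to 21206308 and median UMIs per cell from 3283 to 12859, and 4 cell barcodes were shared between libraries. Levels are in CPM (UMIs of the gene among 1000000 UMIs summed over a class of cells in 1 library), always in the order WT 24 h, CCR2 KO 24 h, WT 72 h, CCR2 KO 72 h. The targeted gene Ccr2 was at 756, 94.8, 1064 and 100 CPM in monocyte/Mφ-like cells. These numbered 1279, 221, 866 and 131 cells, with median UMIs of 14571, 15762, 13872 and 10628. Neutrophil-like cells numbered 291, 1268, 85 and 211, with 2103 to 4925 median UMIs. Dendritic cell-like cells numbered 60, 62, 153 and 150. A cluster of 569 cells was led by Siglecf, Prss2 and Ltf (16, 67, 107 and 379 cells). Its Csf3r and Cxcr2, receptors of neutrophils, were at 984 to 1631 and 520 to 1220 CPM. The neutrophil markers Mmp9, Hdc and G0s2 were at 2643 to 3591, 1329 to 2156 and 841 to 3741 CPM. S100a8 and S100a9 were at 7254 to 13337 and 8505 to 12621 CPM, against 28587 to 81498 and 33051 to 77463 CPM in neutrophil-like cells. Retnlg, at 1044 to 8715 CPM in neutrophil-like cells, was at 4.28 to 45 CPM. The eosinophil genes Il5ra and Prg2 were at 0 UMIs in it. Its best scoring marker list was that of neutrophils, with 8 markers detected. It was nevertheless given no cell type name and is called Siglecf-high.

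Levels of most members, as shares of the UMIs of a class, differed by cell class and were higher in the granulocyte classes than in monocyte/Mφ-like cells. The granulocytes held fewer UMIs per cell. Median UMIs were 2103 to 4925 in neutrophil-like and 1214 to 3007 in Siglecf-high cells, against 10628 to 15762 in monocyte/Mφ-like cells. A higher CPM thus need not mean more UMIs of a member per cell. Summed over the 10 members, Siglecf-high cells had 12279 to 17804 CPM, neutrophil-like cells 8737 to 12347, monocyte/Mφ-like cells 2328 to 4952 and dendritic cell-like cells 1741 to 3564. Neutrophil-like cells were at least 2-fold above monocyte/Mφ-like cells in each of the 4 libraries for 5 members, Egr1, Egr3, Junb, Ier2 and Nr4a1, where 11.5% of 5278 genes were. Egr2 was 1.42 to 2.99 times higher in neutrophil-like cells and Fos 1.62 to 2.70 times. Jun was lower in neutrophil-like cells in 2 of the 4 libraries (0.731 to 1.33 times). Siglecf-high cells were at least 2-fold above neutrophil-like cells in each library for 1 member, Egr2 (2.60 to 8.48 times), where 10.5% of 4905 genes were. Since the classes were formed from the same cells, these are descriptions. The members themselves had been left out of the genes used for clustering.

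**Figure D1:**
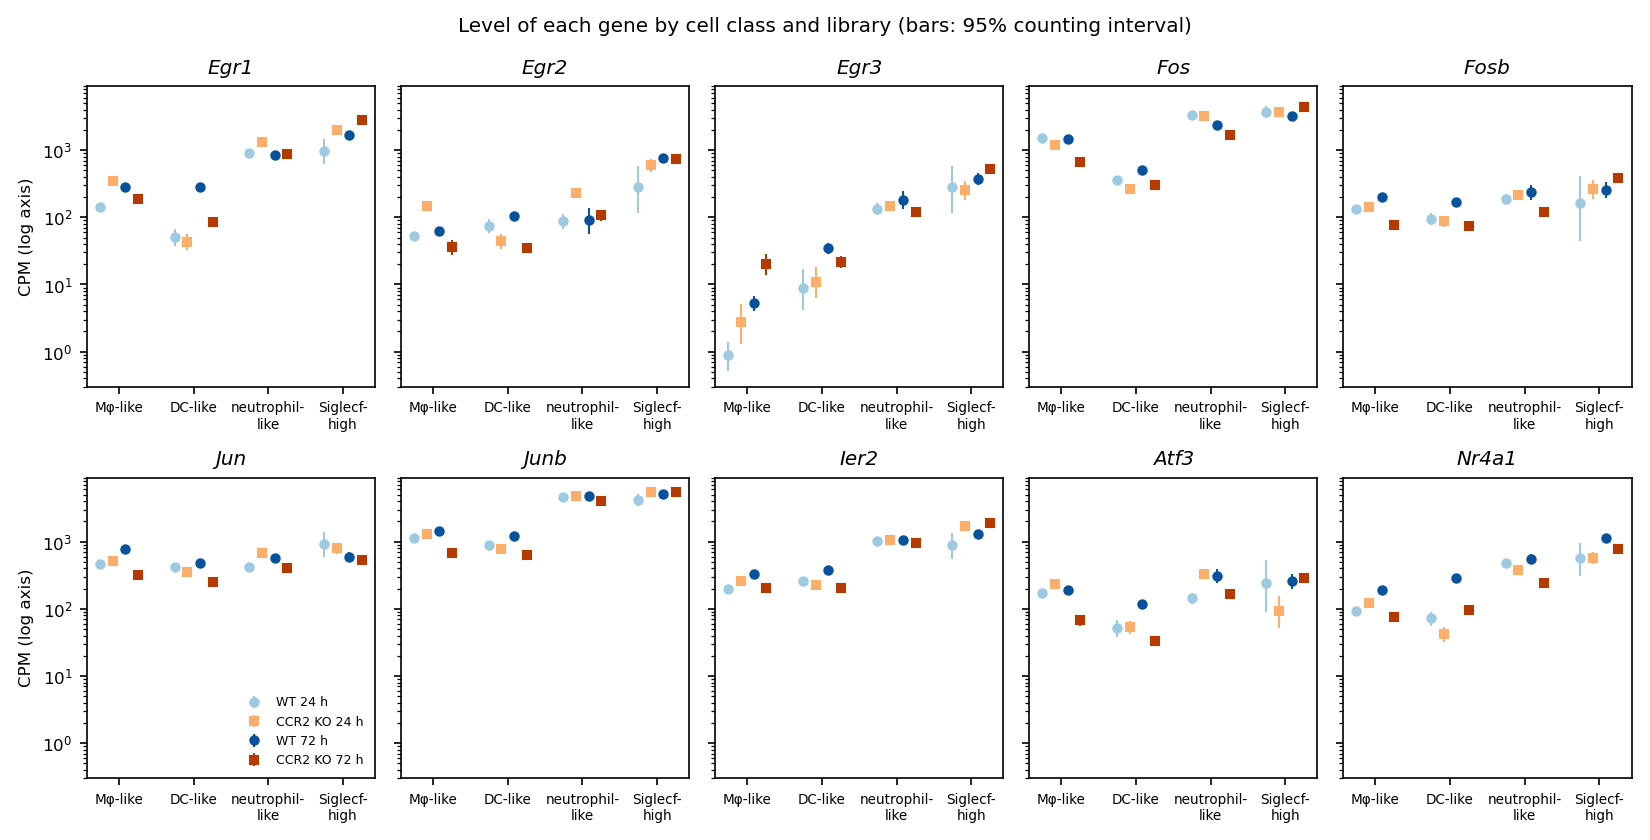
Levels of the 10 members (CPM, log axis) in the main cell classes, with 1 point per library and bars for the 95% counting interval. Junb lies between 4027 and 5497 CPM in all neutrophil-like and Siglecf-high points and between 635 and 1439 CPM in all monocyte/Mφ-like and dendritic cell-like points, whereas the Jun points of the classes overlap.

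Egr1, a zinc finger factor of the EGR family, was at 141, 345, 278 and 185 CPM in monocyte/Mφ-like cells. Its level was 917, 1340, 848 and 887 CPM in neutrophil-like cells and at 976, 1963, 1651 and 2794 CPM in Siglecf-high cells. Dendritic cell-like cells had 51.0, 43.6, 280 and 86.6 CPM. The order of the classes was thus Siglecf-high, neutrophil-like and monocyte/Mφ-like in each library, with overlapping intervals between the first pair only in WT 24 h, while dendritic cell-like cells were level with monocyte/Mφ-like cells in WT 72 h and lower in the other libraries.

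Egr2 and Egr3 differed from Egr1 and from each other. Egr2 was at 53.0, 145, 63.3 and 36.2 CPM in monocyte/Mφ-like cells, at 88.4, 228, 89.7 and 108 CPM in neutrophil-like cells and at 285, 592, 761 and 741 CPM in Siglecf-high cells. CCR2 KO 24 h was the highest library in Mφ-like and in neutrophil-like cells. Egr3 was at 0.883, 2.74, 5.28 and 20.2 CPM in monocyte/Mφ-like cells, but at 133, 148, 184 and 122 CPM in neutrophil-like cells and at 285, 253, 372 and 516 CPM in Siglecf-high cells. Of the 34 Egr3 UMIs in Mφ-like cells of CCR2 KO 72 h, 16 came from 1 cell. Dendritic cell-like cells had 73.9, 44.3, 105 and 34.8 CPM of Egr2 and 8.99, 11.1, 34.6 and 21.6 CPM of Egr3.

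The Egr2 UMIs per Egr3 UMI, a ratio that does not depend on depth, was higher in Mφ-like cells than in granulocytes, least so in CCR2 KO 72 h. It was 60, 53, 12.0 and 1.79 in monocyte/Mφ-like cells, 0.667, 1.54, 0.489 and 0.887 in neutrophil-like cells and 1, 2.34, 2.05 and 1.44 in Siglecf-high cells. The ratio of dendritic cell-like cells, 8.22, 4, 3.02 and 1.61, lay between them in each of the 4 libraries. S100a8 and S100a9, abundant neutrophil mRNAs, summed to 626, 84.7, 161 and 273 CPM in Mφ-like cells against 61637 to 158961 CPM in neutrophil-like cells.

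To compare cells of unequal depth, each was thinned to 1000 UMIs and shallower cells were left out (44 of 2497 Mφ-like, 34 of 1855 neutrophil-like and 42 of 569 Siglecf-high cells). Egr2 was then detected in 5.52%, 14.4%, 5.73% and 6.20% of monocyte/Mφ-like cells (32.5%, 53.4%, 38.3% and 23.7% before thinning) and in 7.14%, 44.1%, 39.0% and 41.8% of Siglecf-high cells (12.5%, 56.7%, 59.8% and 67.3%). The value for WT 24 h in Siglecf-high cells rests on 14 cells. Egr3 was detected in 0% to 1.77% of Mφ-like cells, in 10.99% to 13.1% of neutrophil-like cells and in 15.3% to 26.8% of Siglecf-high cells (before thinning 1.02% to 6.87%, 20% to 25.6% and 18.8% to 44.6%). The thinned share was higher in neutrophil-like than in Mφ-like cells in each of the 4 libraries for 7 members, where 23.1% of 5278 genes were, but for 2 members when at least 2 UMIs were required without thinning. For comparison, T cell-like cells (median UMIs 4782 to 8713) had Egr2 in 2 of 166 thinned cells, or 1.20% (0.146% to 4.28%). They had Egr3 in 0 of 166, which allows a share of up to 1.81%. NK cell-like cells had Egr3 in 3 of 86, or 3.49% (0.725% to 9.86%). The Egr3 share of Mφ-like cells was not above these values. Before thinning, T cell-like cells had 18 Egr3 UMIs over all libraries (12.8 CPM). They are thus not a class without Egr3, and cannot show whether the Mφ-like share is background. In Siglecf-high cells of CCR2 KO 72 h, before thinning, 128 of 379 cells had UMIs of both genes, 127 of Egr2 alone and 41 of Egr3 alone. In Mφ-like cells of WT 24 h these numbers were 11, 405 and 2 of 1279.

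At 24 h, 9 of the 10 members were higher in monocyte/Mφ-like cells of CCR2 KO than of WT mice, with Egr2 and Egr1 in front. The log2 ratio of CCR2 KO to WT was 1.46 (1.30 to 1.61) for Egr2, 1.29 (1.20 to 1.39) for Egr1 and 1.64 (0.35 to 2.85) for Egr3, the last from 10 and 17 UMIs. Egr3 lies under the mean of 20 CPM that was set for a call. Of the other 9 members, 2, Egr1 and Egr2, were at least 2-fold higher and 0 lower, where 2.26% of 5575 genes with that mean were higher and 1.04% lower (1.65% and 1.72% with TMM scaling, which centres most genes in place of the total). The AP-1 subunits moved less: Fos, at 1499 and 1205 CPM, was the 1 lower member (-0.31, -0.36 to -0.27), and Fosb, Jun and Junb had ratios of 0.10, 0.15 and 0.20. Fosb was at -0.03 with TMM scaling. Ier2, Nr4a1 and Atf3 were at 0.39, 0.39 and 0.44.

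The make-up of the Mφ-like class differed between the genotypes at 24 h, and the part of this in the difference was not tested. Egr2 and Egr1 were also higher in CCR2 KO inside some sub-clusters of the class, but not all. A sub-cluster led by Inhba, Fabp4 and Il7r made up 36.7% of the class in CCR2 KO 24 h and 3.99% in WT 24 h, and it had the highest Egr2 and Atf3 levels of the 12 sub-clusters (190 and 377 CPM over all libraries). Within it, Egr2 was at 146 CPM (120 to 177) in WT 24 h and 206 CPM (185 to 230) in CCR2 KO 24 h, and Egr1 at 194 and 450 CPM. Within the sub-cluster led by Cxcl9, Cxcl10 and Gbp2, a set of interferon-induced genes, Egr2 was at 48.0 CPM in WT 24 h and 155 CPM in CCR2 KO 24 h (log2 ratio 1.69, 1.35 to 2.02) and Egr1 at 122 and 229 CPM. Egr2 was higher in CCR2 KO, with an interval above 0, in 4 of the 6 sub-clusters that had at least 10 cells in both libraries. Atf3 went the other way in the first pair, at 448 and 345 CPM in the Inhba sub-cluster and 205 and 150 CPM in the Cxcl9 sub-cluster. Egr1 had log2 ratios of 0.85, 0.03, -0.12 and -0.17 in the sub-clusters led by Col14a1, Ppbp, Cxcl13 and Dmkn. Of the 10 members, 8 were higher and 2 lower in CCR2 KO in the Inhba sub-cluster. In the Cxcl9 and Col14a1 sub-clusters 7 were higher and 3 lower in each. The numbers were 5 and 5 in the Ppbp, 4 and 6 in the Cxcl13 and 4 and 5 in the Dmkn sub-cluster. No share over all genes is given within sub-clusters, so these counts are descriptions. The Cxcl13 cells had median UMIs of 2143 in CCR2 KO 24 h and 9404 in WT 24 h.

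**Figure D2:**
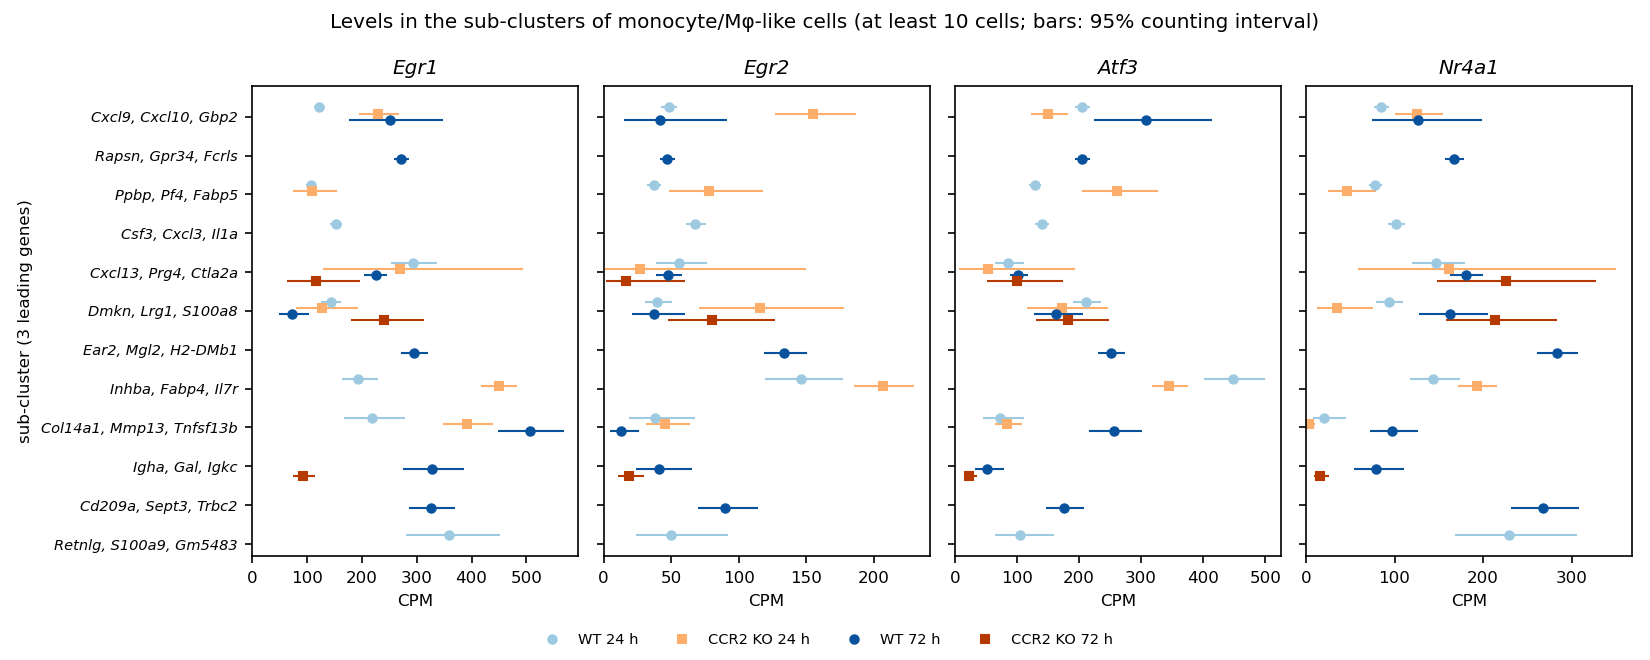
Levels of Egr1, Egr2, Atf3 and Nr4a1 (CPM) in the sub-clusters of monocyte/Mφ-like cells, with 1 point per library that had at least 10 cells and bars for the 95% counting interval. Egr2 is highest in the sub-cluster led by Inhba, Fabp4 and Il7r (146 CPM in WT 24 h and 206 CPM in CCR2 KO 24 h), and Egr1 is lower in CCR2 KO 72 h than in WT 72 h in the sub-cluster led by Igha, Gal and Igkc (92.8 and 327 CPM).

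Pooled over the libraries, Egr1 was highest, at 414 CPM, in cells led by Col14a1, Mmp13 and Tnfsf13b, where Egr2 was at 33.5 CPM, the second lowest of the 12 sub-clusters. In WT 72 h these cells had 506 CPM of Egr1 and 12.5 CPM of Egr2. The order was not the same in every library. In WT 24 h Egr1 was at 218 CPM in these cells and 293 CPM in those led by Cxcl13, and in CCR2 KO 24 h it was at 392 CPM in these cells and 450 CPM in the Inhba sub-cluster, which there had the highest Egr1 and Egr2. Cells led by Ear2, Mgl2 and H2-DMb1, of which 129 of 137 came from WT 72 h, had 133 CPM of Egr2 and the highest pooled Junb and Nr4a1 levels (1931 and 276 CPM). Pooled Fos was highest, at 1801 CPM, in cells led by the inflammatory genes Csf3, Cxcl3 and Il1a, of which 279 of 283 came from WT 24 h.

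At 72 h, 9 of the 10 members were lower in monocyte/Mφ-like cells of CCR2 KO than of WT mice. The change from 24 h was not tested. Atf3, at 191 CPM in WT and 67.1 CPM in CCR2 KO, had a log2 ratio of -1.505 (-1.79 to -1.23). Fosb was at 199 and 77.2 CPM (-1.36), Nr4a1 at 190 and 75.4 CPM (-1.33), Jun at 770 and 323 CPM (-1.26), Fos at 1488 and 671 CPM (-1.15) and Junb at 1439 and 671 CPM (-1.10). Of the 9 members with a mean of at least 20 CPM, which leaves out Egr3, these 6 were at least 2-fold lower and 0 higher, where 2.04% of 5972 genes were lower and 3.63% higher (3.61% and 2.35% with TMM scaling, 3.02% and 2.71% with the median of ratios). Ier2 (-0.70), Egr1 (-0.58) and Egr2 (-0.81) were lower by less than 2-fold.

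The 72 h difference was not shared by all Mφ-like sub-clusters, and the class held unlike mixes of cells in the 2 libraries. Cells led by Rapsn, Gpr34 and Fcrls numbered 421 in WT 72 h and 1 in CCR2 KO 72 h, and those led by Ear2 129 and 2. The members summed to 5244 and 5587 CPM in these cells of WT 72 h. The part of this make-up in the class ratios was not tested. Cells led by Igha, Gal and Igkc made up 42.0% of the class in CCR2 KO 72 h and 3.93% in WT 72 h, with 55 and 34 cells. In them all 10 members were lower in CCR2 KO, 9 with an interval below 0, and the 10 summed to 1205 CPM against 3688 CPM in WT. Their median mitochondrial share was 6.83% in CCR2 KO 72 h and 4.84% in WT 72 h, and the plasma cell markers summed to 299 CPM (4 of 5 detected) in Mφ-like cells of CCR2 KO 72 h against 2.44 CPM (3 of 5) in WT 72 h. Their part in the result was not tested. In the cells led by Cxcl13, Prg4 and Ctla2a, with 36 and 152 cells, 4 members were higher and 6 lower in CCR2 KO, and in those led by Dmkn, Lrg1 and S100a8, with 12 and 31 cells, 6 were higher and 3 lower. The Cxcl13 cells had median UMIs of 1776 in CCR2 KO 72 h and 12964 in WT 72 h, so that their CCR2 KO levels rest on few UMIs. No share over all genes is given within sub-clusters, so the counts of members higher or lower in them are descriptions. With the Igha sub-cluster and 2 small ones left out (71 against 794 cells), 0 of the 9 members were at least 2-fold apart. With cells of at most 5% mitochondrial UMIs (46 against 564 cells), 1, Atf3, was lower and 0 higher.

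**Figure D3:**
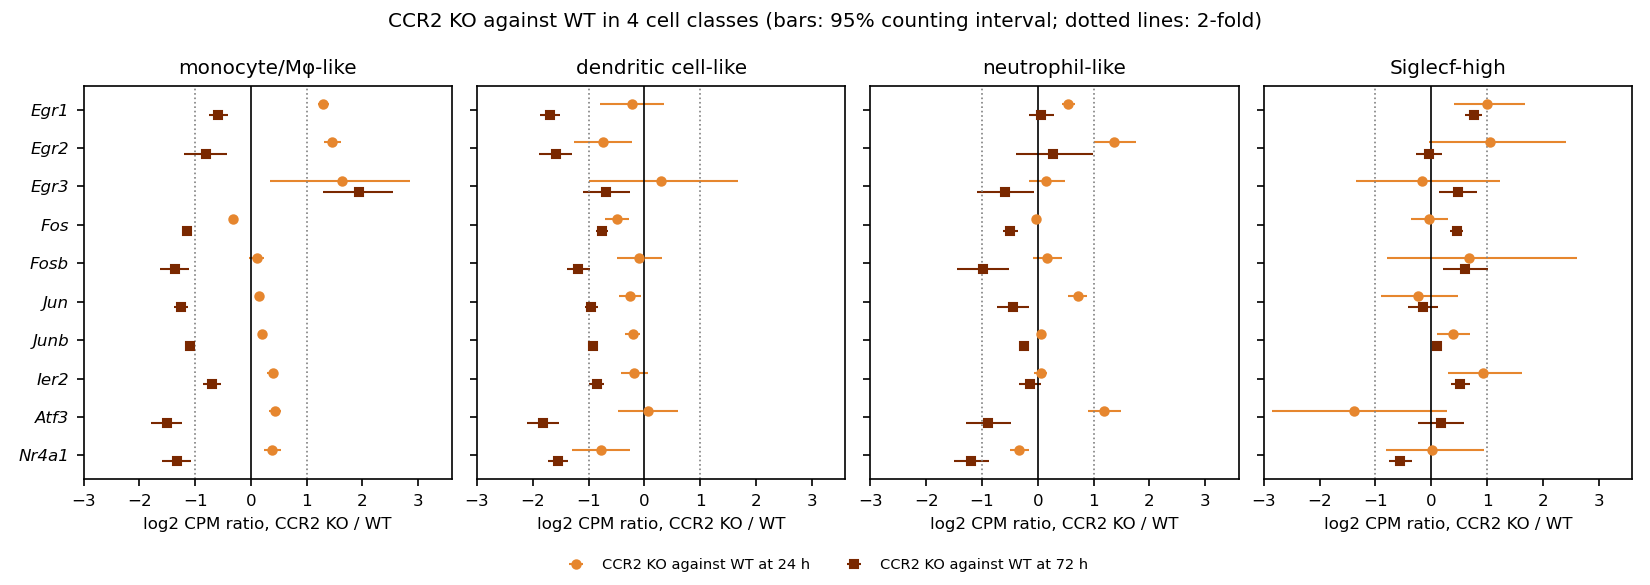
Log2 ratio of CPM, CCR2 KO to WT, of the 10 members in 4 cell classes at 24 h and at 72 h, with bars for the 95% counting interval and dotted lines at 2-fold. At 72 h, 9 members lie below 0 in monocyte/Mφ-like cells and all 10 in dendritic cell-like cells, whereas 7 lie above 0 in Siglecf-high cells.

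Over time, most members were higher in monocyte/Mφ-like cells of WT and lower in those of CCR2 KO mice. In WT, 9 members were higher at 72 h than at 24 h. Of the 9 with a mean of at least 20 CPM, 1, Nr4a1 (1.04, 0.95 to 1.13), was at least 2-fold higher, where 5.73% of 5759 genes were higher and 6.37% lower (4.01% and 9.55% with TMM scaling, under which 0 members were). Egr1 was close to that, at 0.98 (0.91 to 1.05), and Egr2 at 0.26 (0.12 to 0.39). Fos had a ratio near 0 (-0.01, -0.04 to 0.02), and Atf3, at 0.16, was at -0.0031 with TMM scaling. Cells led by Rapsn, Gpr34 and Fcrls were 421 of the 866 Mφ-like cells of WT 72 h and 8 of the 1279 of WT 24 h. Within sub-clusters of WT, 9 members were higher at 72 h and 1 lower in the Col14a1 sub-cluster, 6 and 4 in the Cxcl9, 4 and 6 in the Cxcl13 and 4 and 5 in the Dmkn sub-cluster. In CCR2 KO, 9 members were lower at 72 h. The direction turned for Nr4a1 (-0.68, but 0.32 with the Igha sub-cluster and 2 small ones left out and 0.088 with at most 5% mitochondrial UMIs) and for Ier2 (-0.37, but 0.23 with those sub-clusters left out and 0.0070 with the mean of per-cell CPM). Of the 9 members with a mean of at least 20 CPM, Egr2 (-2.004, -2.41 to -1.62) and Atf3 (-1.79) were at least 2-fold lower and 0 higher, where 7.42% of 5862 genes were higher and 4.28% lower (4.61% and 6.81% with TMM scaling, under which 6 members were at least 2-fold lower). Within the sub-clusters led by Cxcl13 and by Dmkn, 5 members each were lower at 72 h in CCR2 KO and 5 and 4 were higher. For the counts within sub-clusters over time, too, no share over all genes is given.

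Neutrophil-like cells showed a smaller set of differences, led by Egr2 and Atf3. At 24 h, Egr2 was at 88.4 CPM in WT and 228 CPM in CCR2 KO (log2 ratio 1.37, 1 to 1.76) and Atf3 at 144 and 329 CPM (1.20, 0.91 to 1.497). These 2 members were at least 2-fold higher and 0 lower, where 5.25% of 3997 genes were higher and 1.93% lower (3.84% and 2.83% with the median of ratios). The Atf3 ratio was under 2-fold with the mean of per-cell CPM (0.87), with thinning to 1000 UMIs (0.66), with a per-cell marker gate (0.95) and at a clustering resolution of 2 (0.96). Jun (417 and 684 CPM) and Egr1 were higher by 0.71 and 0.55, and Junb, Ier2 and Fos had ratios of 0.05, 0.05 and -0.02, of which Junb and Ier2 were at -0.08 each with the median of ratios. At 72 h, Nr4a1 was at 559 CPM in WT and 245 CPM in CCR2 KO (-1.19, -1.49 to -0.88), and 1 member was at least 2-fold lower, where 5.02% of 4041 genes were lower and 3.44% higher (2.76% and 5.46% with TMM scaling, under which Nr4a1 too was less than 2-fold lower).

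From 24 h to 72 h in WT, Atf3 went from 144 to 310 CPM in neutrophil-like cells (1.11, 0.66 to 1.55) and 1 member was at least 2-fold higher, where 10.1% of 3990 genes were higher and 6.39% lower (6.35% and 9.73% with TMM scaling, under which 0 members were). In CCR2 KO all 10 members were lower at 72 h. Egr2, at 228 and 108 CPM, had the largest log2 ratio, -1.08 (-1.36 to -0.80), and was the 1 member at least 2-fold lower, where 7.25% of 4082 genes were lower and 3.67% higher (6.00% and 4.68% with the median of ratios, under which 0 members were). Its ratio was 0.42 with the per-cell gate and 0.11 when libraries were clustered separately. The direction turned for other members too. With the gate, Egr1, Egr3, Ier2 and Nr4a1 were at 0.14, 0.88, 0.17 and 0.18. With libraries clustered separately these 4 were at 0.20, 0.56, 0.30 and 0.04, and Junb was at 0.03. Egr3 was also at 0.17 with thinning and 0.095 with the mean of per-cell CPM. The interferon-led cluster, which had the highest Egr2, was 42.5% of the class in CCR2 KO 24 h and 5.21% in CCR2 KO 72 h, with 328 and 242 CPM of Egr2. Its part in the result was not tested. Fos was at 3249 and 1705 CPM (-0.93) and Atf3 at 329 and 167 CPM (-0.98).

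Atf3 levels differed between the clusters of neutrophil-like cells. Over all libraries they were at 838 CPM in cells led by Rab15 and 41.8 CPM in cells led by Retnlg. Cells led by Mrgpra2a, Ifit3b and Cxcr2 lay between, at 398, 249 and 145 CPM. These are descriptions. Cells led by Rab15, Mreg and Fam221a had 884, 826 and 810 CPM in WT 24 h, CCR2 KO 24 h and CCR2 KO 72 h (13, 222 and 21 cells). Cells led by Retnlg, BC100530 and Ngp had 10.3, 32.3, 165 and 42.0 CPM in the 4 libraries. The cells led by Rab15 were 17.5% of the neutrophil-like cells of CCR2 KO 24 h and 4.47% of those of WT 24 h. Cells led by the interferon-induced Ifit3b with Gm13822 and Ifit1bl2 had the highest Egr2 level of the neutrophil-like clusters, at 196 and 328 CPM in WT 24 h and CCR2 KO 24 h, and numbered 61 and 539 cells there.

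Dendritic cell-like cells had their highest level in WT 72 h for all 10 members. The share of all genes highest in that library is not given. Egr1 was at 51.0 CPM in WT 24 h and 280 CPM in WT 72 h (log2 ratio 2.46, 2.05 to 2.89) and Nr4a1 at 71.9 and 283 CPM (1.97). From 24 h to 72 h in WT, 4 members (Egr1, Egr3, Atf3 and Nr4a1) were at least 2-fold higher, where 4.79% of 5808 genes were higher and 2.24% lower. In CCR2 KO, 1 member, Nr4a1 (1.20), was at least 2-fold higher over the same time, where 3.4% of 5849 genes were higher and 2.7% lower. At 72 h, 5 members (Egr1, Egr2, Fosb, Atf3 and Nr4a1) were at least 2-fold lower in CCR2 KO than in WT and all 10 were lower, where 1.8% of 5946 genes were lower and 1.06% higher. Atf3 was at 118 and 33.3 CPM (-1.82, -2.11 to -1.53). At 24 h, 0 members were 2-fold apart, where 2.96% of 5643 genes were higher and 2.2% lower. The make-up of the class changed over time, with cells led by Xcr1, Ube2c and Clec9a being 7 of 60 in WT 24 h, 5 of 62 in CCR2 KO 24 h, 68 of 153 in WT 72 h and 78 of 150 in CCR2 KO 72 h. Within the other cluster, led by Fscn1, Cd209d and Cyp7b1, Egr1 was at 59.97, 42.5, 316 and 100.2 CPM and Nr4a1 at 78.8, 44.2, 366 and 110 CPM, again highest in WT 72 h. The monocyte/Mφ markers (11 of 11 detected) summed to 4099, 1922, 6113 and 2553 CPM in dendritic cell-like cells, also highest in WT 72 h, and to 16083 to 30470 CPM in monocyte/Mφ-like cells. Neutrophil markers in dendritic cell-like cells summed to 281.6 CPM in CCR2 KO 72 h and 12.9 CPM in WT 72 h. The part of either in the result was not tested.

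Siglecf-high cells went against the other classes at 72 h. There, 7 members were higher in CCR2 KO than in WT and 0 were 2-fold apart, where 4.96% of 5809 genes were higher and 2.77% lower. Egr1 had a log2 ratio of 0.76 (0.61 to 0.92), Egr3 of 0.47 (0.15 to 0.81) and Egr2 of -0.04 (-0.27 to 0.20), while Nr4a1, at 1142 and 778 CPM, was lower (-0.55, -0.75 to -0.35). The log2 ratio of monocyte/Mφ-like cells lay below that of Siglecf-high cells, with an interval of the difference that left out 0, for 9 of the 10 members (median difference -1.21), where 6.61% of 6219 genes were. That of dendritic cell-like cells did so for all 10 (-1.30), where 6.79% of 6217 genes were. CCR2 KO 72 h was the lowest library for 7 members in Mφ-like cells, 7 in neutrophil-like cells and 6 in dendritic cell-like cells, and the highest for 6 members in Siglecf-high cells. The share of all genes with such an order is not given, so these counts are descriptions. In neutrophil-like cells the median log2 ratio of all genes, CCR2 KO to WT at 72 h, was -0.15.

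To set library-wide against class-specific variation, the spread of log2(CPM + 10) over 4 libraries and the 3 classes with at least 20 cells in each was divided into a class part, a library part and the rest. The class part was above the library part for 8 members, from 63.1% against 27.3% for Atf3 to 93.5% against 4.29% for Ier2. Egr3 had 90.8% and 4.67%, Fos 89.3% and 6.77% and Egr1 82.4% and 5.97%. Fosb (38.7% and 55.0%) and Jun (24.4% and 56.6%) followed the library more than the class. Egr2 was the least regular, with 32.5% class, 28.3% library and 39.3% rest. The median over 5646 genes was 83.3% class and 6.15% library. With the 5 classes of at least 10 cells, Siglecf-high and T cell-like cells included, the class part was the larger for all 10 members and reached 86.7% for Egr2.

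**Figure D4:**
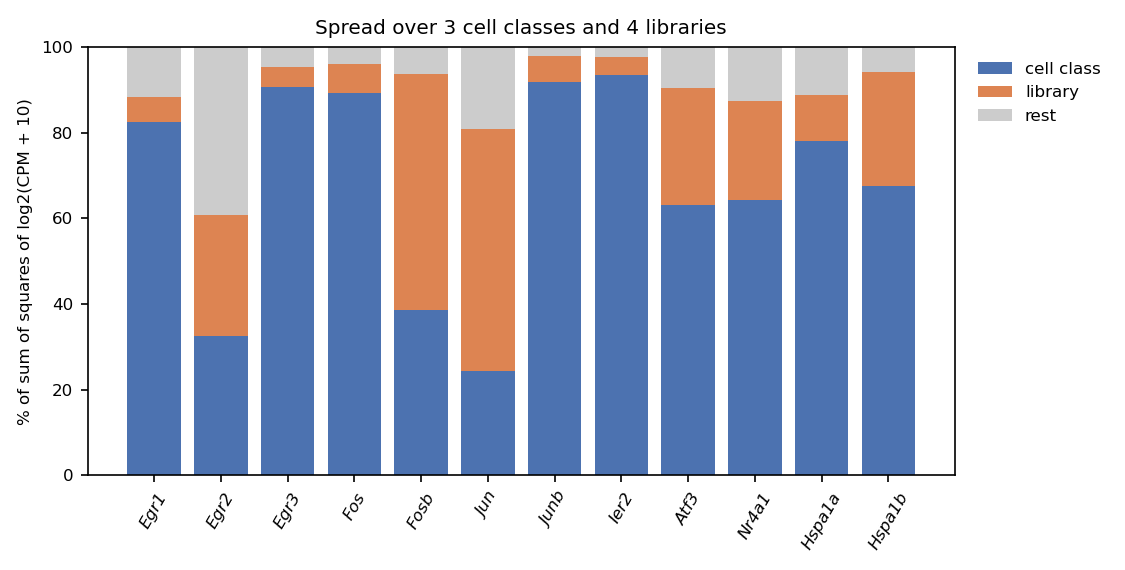
Share of the spread of log2(CPM + 10) over 3 cell classes and 4 libraries (stacked bars, percent of the sum of squares) that lay between classes, between libraries or in neither, for the 10 members and for Hspa1a and Hspa1b. The library part is the largest for Fosb (55.0%) and Jun (56.6%) and the rest for Egr2 (39.3%).

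Heat shock genes, which tissue handling also induces, went with the members in part only. Hspa1a and Hspa1b, the inducible HSP70 genes, were at 63.9, 106, 180 and 29.7 CPM and at 32.0, 104, 130 and 14.9 CPM in monocyte/Mφ-like cells, highest in WT 72 h and lowest in CCR2 KO 72 h. Their order of libraries was that of the member sum in these cells. In dendritic cell-like cells they were at 112, 85.6, 173 and 39.3 CPM and at 58.9, 82.0, 151 and 49.2 CPM, again highest in WT 72 h. In neutrophil-like cells they were at 4.08 to 9.17 and 0 to 12.2 CPM, where the members summed to 8737 to 12347 CPM. The 12 heat shock genes summed to 7519, 8087, 4565 and 4746 CPM in Mφ-like cells, where the members summed to 3872, 4256, 4952 and 2328 CPM, so that over time the sums went opposite ways in WT and were both lower at 72 h in CCR2 KO, and from 24 h to 72 h in WT 5 of the 11 with at least 20 CPM were at least 2-fold lower, led by Hsph1 and Hspd1, and 2 higher. The part of handling in any member's level was not tested.

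Other genes of the same response were lower in Mφ-like cells of CCR2 KO 72 h too. Of the feedback and signalling genes of the immediate early response with at least 20 CPM, 0 of 12 were higher and 12 lower in CCR2 KO than in WT at 72 h, 5 of them at least 2-fold, with a median log2 ratio of -0.93 against 0.11 over all genes. Gadd45b, a stress sensor that NF-κB and AP-1 induce, was at 154 CPM in WT and 31.5 CPM in CCR2 KO, and the phosphatase gene Dusp2 at 47.3 and 11.3 CPM. At 24 h, 8 of 13 were higher and 5 lower, with Dusp5 (1.08) and Rhob (1.07) at least 2-fold higher. Of 8 other immediate early transcription factors, 7 were lower at 72 h and 1, Klf4 (184 and 77.2 CPM), at least 2-fold. All 8 were higher at 24 h, 0 of them 2-fold. The upstream regulators (such as Srf, Elk4, Crem and Mef2c) split evenly at 72 h, with 4 higher and 4 lower of 8, 0 of them 2-fold, and a median of 0.09. Of 3 EGR corepressors and targets with at least 20 CPM, Nab2, which binds and restrains EGR factors, was at 52.7, 61.9, 48.6 and 30.9 CPM. Of 4 integrated stress response genes, Gdf15 was at 30.5, 73.7, 45.4 and 26.1 CPM, and Hmox1, at 173 CPM in WT 72 h and 720 CPM in CCR2 KO 72 h, was higher where Atf3 was lower.

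Across the 12 points of 3 classes and 4 libraries, the genes most like each member included other genes of the same response. Egr1 was most like Furin, Dusp1 and Zfp36 (Pearson's r 0.976, 0.956 and 0.951), Ier2 most like Ier5 (0.989), Junb most like Ccnl1 (0.988), Fos most like Vmp1 (0.981) and Nr4a1 most like Rgs2 (0.943). Egr3 was most like Cass4 (0.976) and Atf3 most like Gna13 (0.931). Jun was most like Fosb (0.85), the other member that followed the library more than the class in the split over these 3 classes. Egr2 had the lowest best value, 0.828 with Tgif1. The points share libraries and classes, and these values are descriptions.

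Genes on the opposite strand overlap 3 members, and the strand setting of the counting was not given in the sources used here. Whether their reads were counted for these members was not tested. In the GENCODE annotation of GRCm38, Jun (chr4:95049034-95052222) lies opposite Junos, Junb (chr8:84974484-84978718) opposite Prdx2, a peroxiredoxin gene, and Atf3 (chr1:191170296-191218039) opposite Gm24748. The other 7 members had 0 overlapping genes.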

How the data were processed

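The deposited values are raw UMI counts per gene and cell. Per the labels and the study's methods, the authors prepared 10x 3' libraries of pooled mice, aligned to GRCm38 and counted UMIs with Cell Ranger 3.0.2, and removed cells with under 200 genes or over 10% mitochondrial UMIs with Seurat. Groups came from the labels. The 10 members, the gene lists and the alternatives were chosen with earlier results of these data known.

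From the counts, 11 cells with non-immune markers were removed. Cells were clustered over all libraries (scanpy 1.11.5, leidenalg 0.10.2, 2000 variable genes without immediate early and heat shock genes, 30 components, 20 neighbours, resolution 1), and clusters were named "X-like" from markers (score of at least 0.6, at least 3 detected). These names are rebuilt, so differences from the study's subsets may come from that. Scrublet marked 9 of 5800 cells (0.155%), so it was taken not to have worked and doublets were kept. UMIs were summed per class and library (numpy 2.4.6, pandas 2.3.3). Intervals are exact Poisson for CPM, binomial for shares, conditional binomial for ratios and normal for differences between classes (scipy 1.17.1). A gene was called apart at a CPM ratio of at least 2, among genes with a mean of at least 20 CPM, with no test since each group is 1 library. TMM came from edgeR 4.0.16. The steps were tested on simulated data. All 10 members are named, as are up to 2 genes each way per other list and comparison, up to 3 most alike genes per member, and the 3 leading genes of a cluster. Neutrophil-like cells, planned as the background for Egr2 and Egr3 shares, held both. T cell-like cells took their place, but held UMIs of both too and serve as a comparison only.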

Additional observations from a re-analysis of the deposited data

Results flagged for a closer look

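For 3 pairs of values the ratio of CCR2 KO to WT went opposite ways at 24 h and at 72 h by at least 0.5 on the log2 scale each. The difference between the times was not tested, with 1 library per group. Egr1 in monocyte/Mφ-like cells had a log2 ratio of 1.295 at 24 h and -0.58 at 72 h, and Egr2 in the same cells 1.46 and -0.81. Atf3 in neutrophil-like cells had 1.20 at 24 h and -0.89 at 72 h.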

How the results depend on the processing

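Counts here are of all 10 members, Egr3 included whatever its level. In monocyte/Mφ-like cells at 24 h, 3 members were at least 2-fold apart between genotypes (2 with thinning to 1000 UMIs, where WT had 0 Egr3 UMIs and no Egr3 ratio was given). At 72 h the count of 7 was 2 with at most 5% mitochondrial UMIs and, an alternative added after seeing the data, 1 with 3 sub-clusters left out. Over time in WT Mφ-like cells the count of 2 was 1 with TMM, the median of ratios and thinning. In CCR2 KO it was 3, but 7 with TMM, the median of ratios, each library clustered on its own, and immediate early and heat shock genes kept in clustering, and 6 with a per-cell marker gate. In neutrophil-like cells the counts between genotypes were 2 at 24 h (1 with the mean of per-cell CPM, thinning to 1000 UMIs, the per-cell gate and a resolution of 2) and 1 at 72 h (0 with TMM and the gate, 2 with the mean of per-cell CPM and thinning, 3 with the top 5% of cells by UMIs left out, added after seeing the data). Over time they were 1 in WT (0 with TMM, median of ratios, mean of per-cell CPM, thinning, resolution 2 and the top 5% left out, 2 with each library on its own) and 1 in CCR2 KO (0 with median of ratios, mean of per-cell CPM, the gate, resolution 2 and each library on its own, 3 with the top 5% left out). The Egr2 ratio of 72 h to 24 h in CCR2 KO neutrophil-like cells, -1.08, was 0.42 with the gate and 0.11 with each library on its own. The number of members detected in a larger share of neutrophil-like than Mφ-like cells in all libraries, 7, was 2 with at least 2 UMIs and no thinning. The causes were not tested. TMM shifted the median log2 ratio of all genes in Mφ-like cells by -0.20 to -0.14. Of the single values, 729 stayed within the counting interval, 267 moved beyond the counting interval and 2, at least 2-fold at first, reversed. Ratios of any size changed sign in 60 of these 998 cases, 11 with each library on its own, 10 with the gate, 9 with the mean of per-cell CPM and 8 with thinning. No paired analysis was possible because each group is 1 library. Counting error is the only error measured: pooled mice, capture and sequencing run cannot be told apart from genotype and time.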
